A study of Mus musculus with 2 samples.

Results

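The cytosolic ribosomal protein genes encode the proteins of the large and small ribosomal subunits. They were chosen by a rule on names that uses no measured value, though earlier results of these data were known. They are the protein-coding genes of GENCODE M21 whose symbol begins with Rpl or Rps and a digit, together with Rpsa, Rplp0, Rplp1 and Rplp2, and without the S6 kinase genes (Rps6k). This gave 92 of 21461 nuclear protein-coding genes, 57 named for the large and 35 for the small subunit. Of these, 77 were canonical ribosomal protein genes (46 large, 31 small) and 7 were paralogs such as Rpl22l1. Another 7 carried names of processed copies (ending in -ps and a number, or rt), 6 of them with a single exon, and 1 was Rps19bp1, which encodes a protein that binds Rps19 and is not part of the ribosome.

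Total RNA came from G1E-ER4, an immortalized mouse erythroid line labelled male and C57BL/6J in which Gata1 function is restored by a GATA1 protein that estradiol switches on. The cells had received 17beta-estradiol at 10 nM over 24 h, which starts erythroid differentiation. The series has 1 group of 2 libraries, labelled biological replicates 1 and 2, and no untreated or Gata1-null group. The values are therefore levels in induced cells of 1 line, with no contrast and no test. The ribosomal protein genes took 638265 of 50277914 expected counts (estimated reads or fragments per gene) in replicate 1, and 607090 of 47478888 in replicate 2. All 10 erythroid markers checked reached 1 TPM (a transcript's share of the library after division by length) in both libraries, and none of 13 markers of other cell types did. Of those 13, the granulocyte genes Mpo (1 and 70 counts in replicates 1 and 2) and Elane (0 and 17 counts) were nearly restricted to replicate 2, and their part in the values below was not tested. The 10 erythroid markers include Gata1, at 57.6 and 65.7 TPM. How much of this comes from the GATA1 that estradiol switches on was not tested.

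Each ribosome carries 1 copy of nearly every ribosomal protein, so cells make these proteins in matched amounts, and unassembled ones are degraded. Most ribosomal protein mRNAs begin with a terminal oligopyrimidine (TOP) motif, a run of C and T bases at the very start through which mTOR and LARP1 regulate their translation. In humans, loss of a single copy of several of these genes causes Diamond-Blackfan anaemia, a failure of red cell production in which GATA1 protein synthesis is reduced.

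Nearly all ribosomal protein genes were expressed at high levels. A TPM of 1 or more in both libraries was reached by 86 of the 92 members, against 40.2% of all nuclear protein-coding genes. These 86 included all 77 canonical genes. A mean TPM of 100 or more was reached by 69 members, against 1.49% of nuclear protein-coding genes, and 38 of the 100 most abundant nuclear protein-coding genes were members. Together the 92 members held 13.2% ± 0.117 of nuclear protein-coding TPM (SD, n = 2), at 13.3% and 13.1% in replicates 1 and 2. On expected counts, where length is left in, that share was 4.40% ± 0.0518 (SD, n = 2). TPM is relative to everything in the library, of which the members held 3.01% ± 0.00901 (SD, n = 2), and it averages over all cells of a culture, so the RNA per cell is not known.

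The canonical genes were not expressed at 1 common level. Their mean TPM had quartiles of 161, 262 and 569, and the highest exceeded the lowest by 55.3-fold ± 0.733 (SD, n = 2). With the pseudogene copies described below added to each gene, the highest exceeded the lowest by 21.5-fold. Between 100 and 1000 TPM stood 65 of the 77 genes, with 3 above and 9 below. Summed TPM of the large subunit members was 1.58 ± 0.0292 times that of the small subunit members (SD, n = 2), while the medians of mean TPM over the canonical genes were 289 for the 46 large and 247 for the 31 small subunit genes. Level did not follow transcript length: across the 77 canonical genes, Spearman's rho of TPM with effective length was -0.01 in replicate 1 and 0.03 in replicate 2 (a description across genes, which share libraries and depth).

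**Figure D1:**
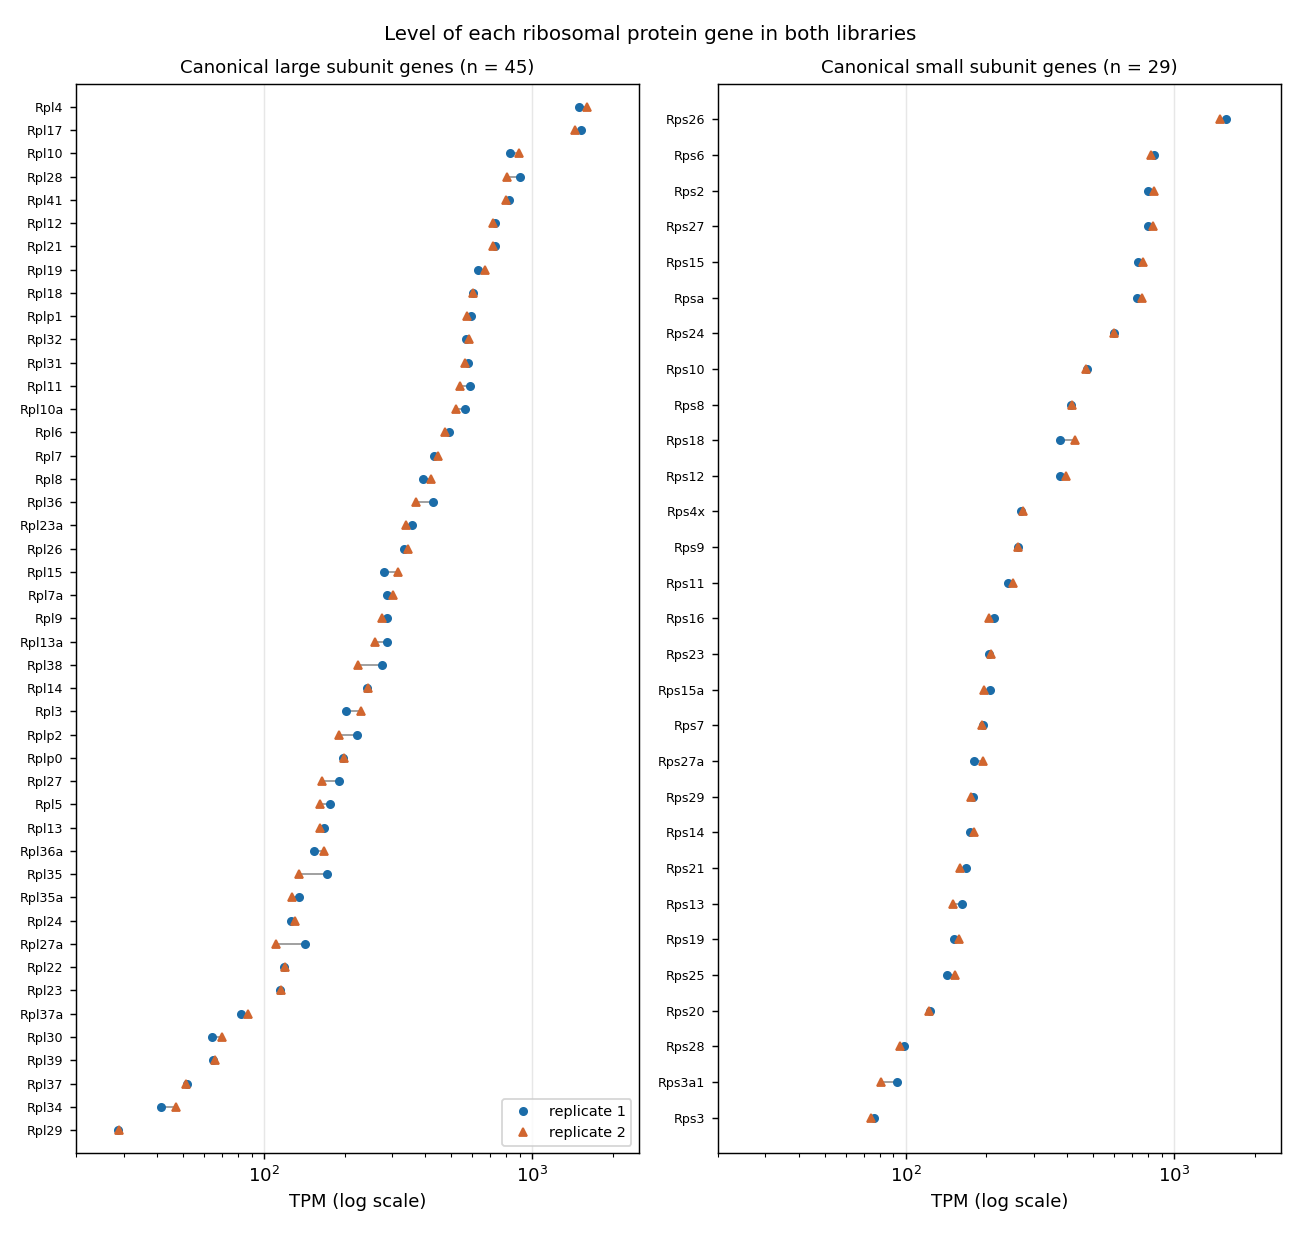
TPM of 45 canonical large subunit genes (left) and 29 canonical small subunit genes (right) on a log axis, with circles for replicate 1 and triangles for replicate 2 joined by a line. Rpl4, Rpl17 and Rps26 stand above 1000 TPM, and the other 71 plotted range down to Rpl29 at 28.7 TPM.

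Rpl4, whose protein lines the narrowest stretch of the tunnel through which the new chain leaves the ribosome, was the highest of the large subunit, at 1494 TPM in replicate 1 and 1606 TPM in replicate 2. Rpl17, which forms the other side of that constriction, followed at 1529 and 1449 TPM. Next came Rpl10, a late-joining protein near the peptidyl transferase centre, at 830 and 891 TPM, and Rpl28 at 900 and 807 TPM. The fifth was Rpl41, which encodes the smallest ribosomal protein, at 818 and 798 TPM. Rpl4 and Rpl17 overlapped within the spread of the libraries. Rpl28 overlapped with both Rpl10 and Rpl41, while Rpl10 was above Rpl41 in each library.

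At the low end of the large subunit, Rpl29 stood at 28.7 and 28.8 TPM in replicates 1 and 2, and Rpl34 at 41.5 and 47.2 TPM. Rpl37 had 51.6 and 51.2 TPM, Rpl39 64.6 and 65.5 TPM, and Rpl30 63.9 and 70.0 TPM. All 5 were under 80 TPM in both libraries, and Rpl29 ranked 1533rd of 21461 nuclear protein-coding genes. These are values of the own loci. With the pseudogene copies described below, mean TPM was 1370.0 for Rpl29, 296 for Rpl34 and 309 for Rpl30. It was 89.2 for Rpl37 and 88.4 for Rpl39.

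Among small subunit genes, Rps26 was alone at the top with 1569 TPM in replicate 1 and 1491 TPM in replicate 2. Its protein sits at the mRNA exit channel. Then came 4 genes close together: Rps6, whose protein is phosphorylated by S6 kinase downstream of mTOR, at 846 and 820 TPM, Rps2 at 804 and 843 TPM, Rps27 at 800 and 833 TPM, and Rps15 at 737 and 765 TPM. Rps6, Rps2 and Rps27 were not separable within the spread of the libraries. Rps27 had the shortest length of the canonical genes, 255 nt, with an effective length of 137 and 133 nt. Its TPM rests on division by this small length: it had 3607 and 3475 counts, against 18671 and 16986 for Rps6.

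The lowest small subunit gene was Rps3, whose protein lies at the mRNA entry channel and takes part in unwinding the mRNA, at 76.0 and 74.3 TPM in replicates 1 and 2. Rps3a1 had 92.7 and 81.0 TPM, Rps28 98.5 and 95.7 TPM, Rps20 123 and 122 TPM, and Rps25 142 and 152 TPM. By own loci the small subunit thus had 3 genes under 100 TPM and the large subunit 6. With copies added, mean TPM was 482 for Rps3a1 and 106 for Rps28.

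Genes whose proteins sit together in the ribosome differed in level at their own loci. In the particle that carries 5S rRNA and also restrains MDM2, the ligase that degrades p53, Rpl11 had 588 and 539 TPM in replicates 1 and 2 and Rpl5 had 176 and 162 TPM. At the stalk, which recruits elongation factors, Rpl12 (730 and 717 TPM) and Rplp1 (590 and 573 TPM) stood above Rplp2 (222 and 191 TPM) and Rplp0 (197 and 199 TPM). These are totals over all transcripts of a gene. On its protein-coding transcript alone, Rpl12 had 132 and 134 TPM, 18.1% and 18.7% of its total. Protein-coding transcripts held 90.1% and 85.1% of the TPM of Rplp2, and 92.8% and 92.2% of that of Rplp0. Rplp1 and Rplp2 encode partners of 1 heterodimer, and their levels did not overlap. Pseudogene copies, described below, held over 50% of the TPM of Rpl5 and Rplp0. With copies added, Rpl5 had 374 and 387 TPM, against 694 and 606 TPM for Rpl11, and Rplp0 had 439 and 446 TPM, above Rplp2 at 223 and 191 TPM.

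Along the exit tunnel, Rpl39 contributes to the wall beside Rpl4 and Rpl17 but was far lower than both. At the tunnel rim, where nascent chain factors dock, Rpl19 had 629 and 669 TPM, Rpl31 576 and 562 TPM, Rpl23a 357 and 340 TPM, Rpl26 334 and 345 TPM, and Rpl35 173 and 135 TPM in replicates 1 and 2. Of the TPM of Rpl35, 2.12% and 2.34% lay on its protein-coding transcript. The rim genes Rpl23a and Rpl26 were separated by less than the spread of the libraries, since their ranges met.

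On the path of the mRNA, the entry pair differed widely, with Rps2 above 800 TPM and Rps3 under 80 TPM in both libraries. At the exit, Rpsa had 729 and 763 TPM, below Rps26 and above Rps28. Rps23, at the decoding centre, had 205 and 209 TPM. Rps27a, made as a fusion to ubiquitin, had 180 and 194 TPM. Of ribosomal proteins that the naming rule does not take in, Fau had 613 and 542 TPM, and Rack1, a scaffold on the small subunit, 394 and 395 TPM.

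All 19 Diamond-Blackfan anaemia genes on the list were detected, as were all 77 canonical genes and 40.2% of all nuclear protein-coding genes. The list had a median of mean TPM of 251, against 262 over the canonical members and 0.025 over all nuclear protein-coding genes. Rps19, the gene most often mutated in the human disease, was near the lower end of the small subunit at 151 and 158 TPM in replicates 1 and 2. Rps26 (highest) and Rps28 (lowest) bounded the list. Further members of the list ran from Rpl35a (135 and 127 TPM) through Rps29 (179 and 176 TPM), Rpl27 (190 and 165 TPM), Rps7 (195 and 192 TPM) and Rps15a (206 and 196 TPM) to higher ones. Among these, Rpl15 had 280 and 316 TPM, Rps10 474 and 472 TPM, Rps24 601 and 598 TPM, and Rpl18 601 and 603 TPM. This order is by own locus: with copies added, Rps7 had 595 and 565 TPM, Rpl15 had 919 and 932 TPM, Rpl5 had 374 and 387 TPM, and Rpl31 had 949.8 and 926 TPM.

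Genes that act on these proteins or their mRNAs were present at lower levels. All 6 dedicated chaperones of single ribosomal proteins were detected, with a median of mean TPM of 11.96 and a range of 4.37 (Grwd1, which escorts Rpl3) to 21.8 (Pdcd2, which escorts Rps2). Tsr2, the chaperone of Rps26, had 3.93 and 5.99 TPM in replicates 1 and 2, and Heatr3, which helps import Rpl5, 7.60 and 12.1 TPM. Bccip, the chaperone of Rpl23, had 14.8 and 15.9 TPM, and Aamp, the counterpart of the yeast chaperone of Rpl10, 12.1 and 16.1 TPM. All 6 genes of TOP mRNA control were detected: Larp1 at 52.3 and 53.1 TPM, Mtor at 7.13 and 7.85 TPM, its partner Rptor at 11.1 and 12.2 TPM, Eif4e at 63.4 and 61.1 TPM, and its inhibitors Eif4ebp1 at 89.1 and 83.3 TPM and Eif4ebp2 at 74.3 and 74.1 TPM.

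Windows around the annotated transcription start, from 250 bases before to 50 after, were available from RefSeq (GRCm38.p6) for 57 of the 77 canonical genes, with 67 starts. A run of at least 8 pyrimidines on the coding strand, from 20 bases before the start to 50 after, was found in 47 of the 67 windows (70.1%), against 25.4% of all 32851 promoter windows. Shown here are windows from 60 bases before to 30 after the start. They come from members with 1 annotated start and such a run in the part shown, 4 of high and 2 of low level. Not all members of that kind were ranked for this choice, so the windows are examples. Capitals mark the first run of 8 or more pyrimidines that begins no earlier than 20 bases before the start. In Rpl39 a run of 9, beginning 21 bases before the start, is left in lower case.
Rpl4 (chr9:64173327-64173416, + strand): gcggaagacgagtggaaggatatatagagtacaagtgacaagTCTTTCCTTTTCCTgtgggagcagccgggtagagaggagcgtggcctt
Rps26 (chr10:128626477-128626566, - strand): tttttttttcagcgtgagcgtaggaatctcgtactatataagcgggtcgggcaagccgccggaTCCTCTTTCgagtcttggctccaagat
Rpl28 (chr7:4792905-4792994, + strand): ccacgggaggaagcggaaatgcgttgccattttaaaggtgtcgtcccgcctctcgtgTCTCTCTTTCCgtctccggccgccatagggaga
Rps6 (chr4:86857338-86857427, - strand): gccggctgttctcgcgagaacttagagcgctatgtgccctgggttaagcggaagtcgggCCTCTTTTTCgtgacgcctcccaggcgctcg
Rpl27a (chr7:109519135-109519224, + strand): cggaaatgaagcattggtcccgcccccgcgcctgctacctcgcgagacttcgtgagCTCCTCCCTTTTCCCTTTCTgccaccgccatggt
Rpl39 (chrX:37085193-37085282, - strand): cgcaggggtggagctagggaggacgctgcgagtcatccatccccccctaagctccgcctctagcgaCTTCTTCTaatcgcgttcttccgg

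In these windows the marked run was 20 bases long in Rpl27a and 14 in Rpl4, and 8 to 11 in the other 4, while mean TPM was 127 for Rpl27a and 1549.6 for Rpl4. With its pseudogene copies added, Rpl27a had 385 and 416 TPM in replicates 1 and 2. The marked run of Rpl4 began 18 bases before the annotated start and ended before reaching it. In Rpl28, Rps6 and Rpl27a the run began 3, 1 and 4 bases before the start. In Rps26 and Rpl39 it began 3 and 6 bases after the start. Whether these runs are TOP motifs was not tested. Searched on both strands over the whole window, CCGGAAG, the core bound by ETS factors, was present in 25 of the 67 canonical windows (37.3%), against 8.86% of all windows. The YY1 core AAGATGG was present in 11 (16.4%), against 6.34% of all windows, and TATAAA in 6 (8.96%), against 13.6%. CCGGAAG and AAGATGG can overlap by their shared AAG, and the reverse strand of CCGGAAG can extend a pyrimidine run. A match describes the letters of the window and is not evidence of binding.

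The genome holds many copies of these genes, most of them processed pseudogenes (intronless insertions of mRNA), and several canonical genes had more TPM assigned to their copies than to their own locus. By sequence identity (at least 85% over 100 bases of a member's mRNA), 1049 copies were assigned to a canonical gene, 1043 annotated as pseudogenes and 6 as protein-coding. Of the pseudogenes, 1030 were of a processed type. The other 13 include 2610005L07Rik (2179 and 2532 counts in replicates 1 and 2) and Thap6 (579 and 640 counts), which match Rps13 over only 131 and 167 bases. How many of their reads come from Rps13 was not tested. Without these 13, copies held 26.0% and 27.5% of the TPM of Rps13, against 38.6% and 44.5% with them. At these thresholds all canonical genes but Rpl41 had at least 1 copy, with a median of 10 and a maximum of 71 for Rpl7a. Copies that align over fewer than 100 bases are not counted, which may bear on Rpl41, the gene of the smallest protein. Of the 1049 copies, 684 had no count in either library and 222 had counts in both. The same counts over all annotated pseudogenes were not made. The copies took 14.1% ± 0.254 of the expected counts of genes and copies together and 18.6% ± 0.444 of their TPM (SD, n = 2 for each).

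In 9 of the 77 canonical genes, copies held at least 50% of the summed TPM in both libraries. These were Rpl29, Rpl34, Rps3a1, Rpl30, Rpl27a, Rpl15, Rps7, Rpl5 and Rplp0. The level of a gene that shares long identical stretches with a copy is uncertain, because reads from such stretches can only be divided between loci by estimation. The 4 genes with the largest share in copies differ from their highest copy at 1 or 2 of 90 coding bases shown here. Each stretch was chosen as the ungapped window of 90 coding bases with the most differences in its pair. For each pair the member comes first and the copy second, with differing bases in capitals. Coordinates are those of the whole gene in GENCODE M21 (mm10).
Rpl29 (chr9:106429454-106431568, + strand): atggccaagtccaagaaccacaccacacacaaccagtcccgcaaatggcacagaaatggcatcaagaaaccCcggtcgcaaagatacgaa
Gm13841 (chr5:115801677-115802159, - strand): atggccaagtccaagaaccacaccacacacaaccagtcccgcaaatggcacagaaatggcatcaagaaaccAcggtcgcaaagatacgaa
Rpl34 (chr3:130726831-130730398, - strand): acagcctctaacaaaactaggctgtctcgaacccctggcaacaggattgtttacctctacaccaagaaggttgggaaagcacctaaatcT
Rpl34-ps1 (chr6:71124610-71124963, + strand): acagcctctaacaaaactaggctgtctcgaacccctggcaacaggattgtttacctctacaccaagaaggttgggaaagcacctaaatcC
Rps3a1 (chr3:86137940-86142702, - strand): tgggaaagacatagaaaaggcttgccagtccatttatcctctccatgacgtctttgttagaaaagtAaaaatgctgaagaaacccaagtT
Rps3a2 (chr14:88123017-88123808, - strand): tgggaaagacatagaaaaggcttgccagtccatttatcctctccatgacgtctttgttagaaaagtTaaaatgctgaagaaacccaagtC
Rpl30 (chr15:34440505-34443640, - strand): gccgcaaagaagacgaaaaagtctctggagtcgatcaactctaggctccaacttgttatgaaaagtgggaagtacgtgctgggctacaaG
Gm12191 (chr11:49678710-49679057, - strand): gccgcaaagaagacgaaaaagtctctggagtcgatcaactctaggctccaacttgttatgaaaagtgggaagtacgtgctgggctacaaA

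Rpl29 was the extreme case. Its own locus had 28.7 TPM in replicate 1 and 28.8 TPM in replicate 2, while Gm13841, identical over 99.4% of 483 aligned bases, had 654 and 678 TPM. Gm8210, on chromosome 1 and of the same identity, had 651 and 678 TPM. Adding all 63 copies brought Rpl29 to 1345 and 1395 TPM, so that 97.9% ± 0.0470 of the sum lay on copies (SD, n = 2). The gene that was lowest by its own locus was thus among the highest canonical genes by TPM with its copies added. Such sums add loci of unlike length (483 nt for Gm13841, 733 nt for Rpl29), and a shorter locus gains more TPM per count. On counts, copies held 96.5% for Rpl29, 55.9% for Rpl30 (78.3% of TPM) and 41.3% for Rpl27a (68.2% of TPM). In Rps13 the share was larger on counts, at 61.7% against 41.5% of TPM.

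Rpl34 had 41.5 and 47.2 TPM at its own locus in replicates 1 and 2, against 256 and 247 TPM at Rpl34-ps1. Rps3a1 had 92.7 and 81.0 TPM against 268 and 282 TPM at Rps3a2, and Rpl30 had 63.9 and 70.0 TPM against 248 and 236 TPM at Gm12191. In these 3 genes the copy exceeded the member in both libraries. Further highly assigned copies were Gm6472 of Rps7 (398 and 368 TPM), Gm10020 of Rpl15 (389 and 367 TPM) and Rpl31-ps8 (372 and 363 TPM), the last identical to Rpl31 over all 378 aligned bases.

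With copies added to each gene, the highest exceeded the lowest by 21.5-fold, against 55.3-fold by own loci. The SD of log2 mean TPM over the 77 genes was 1.09 with copies and 1.23 without. Genes under 100 TPM numbered 4 with copies (Rps3, Rpl39, Rpl37 and Rpl37a) and 9 without. Rps3 gained nothing and became the lowest, at 75.2 TPM. Rpl4, Rps26 and Rpl17 changed little: copies held 0.261%, 1.64% and 5.96% of their sums. The large subunit had 1.74 ± 0.0175 times the TPM of the small subunit with copies added (SD, n = 2).

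**Figure D2:**
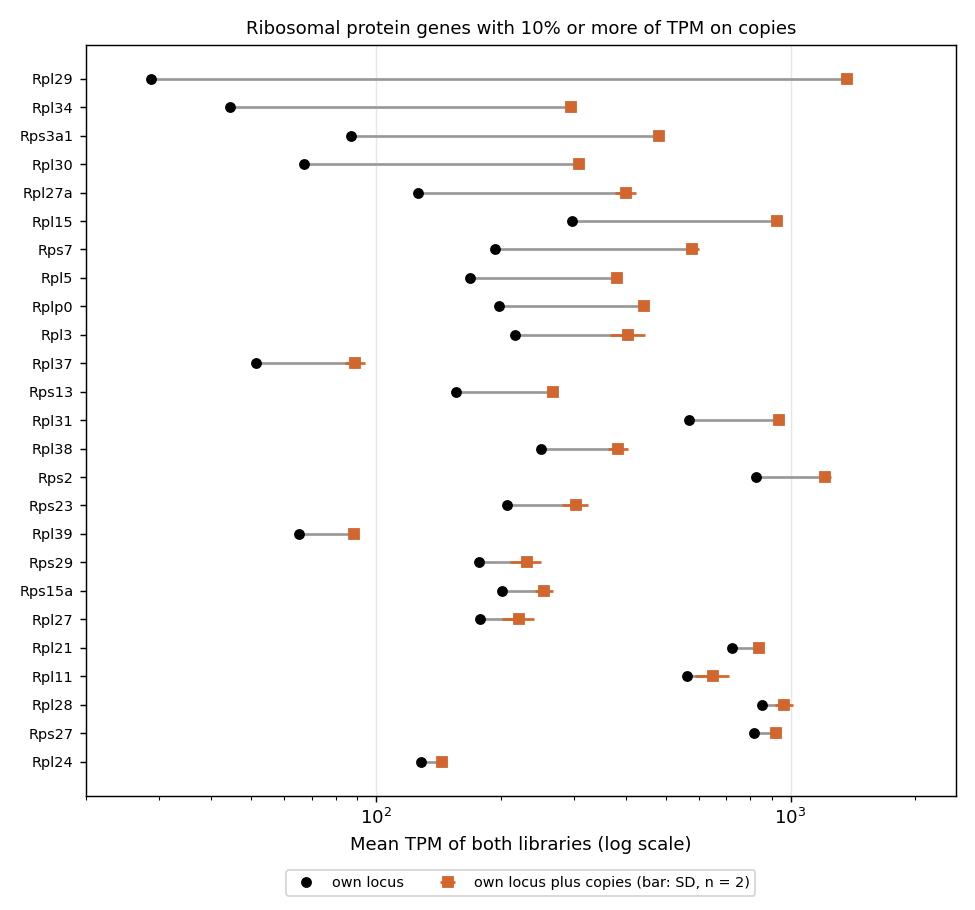
Mean TPM of both libraries on a log axis for 25 canonical genes with at least 10% of their TPM on copies in both libraries, ordered by the ratio of the sum to the own locus. Circles are the gene's own locus and squares the own locus plus copies with SD bars (n = 2); Rpl29 is at 28.7 TPM by its own locus and at 1370.0 TPM with copies.

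Paralogs, some of which stand in for a canonical protein in particular tissues, were below their main copies or had no count. Rpl36al, on chromosome 12, was the highest, with 81.1 TPM in replicate 1 and 68.4 TPM in replicate 2, against 154 and 168 TPM for Rpl36a. The ratio was 0.467 ± 0.0829 (SD, n = 2). Rpl22l1, known in mice as a partner that rises when Rpl22 is lost, had 30.6 and 24.4 TPM, against 119 and 120 TPM for Rpl22, a ratio of 0.230 ± 0.0387. Both ratios were below 1 in both libraries.

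Rps27l, a p53 target in human cells, had 45.8 and 52.2 TPM in replicates 1 and 2, against 800 and 833 TPM for Rps27. The ratio was 0.0599 ± 0.00379 (SD, n = 2), and 0.168 on expected counts, where the short length of Rps27 is left in. Rpl7l1, which acts in ribosome assembly, had 16.7 and 16.5 TPM, against 431 and 448 TPM for Rpl7, a ratio of 0.0379 ± 0.00139 (SD, n = 2). Rpl3l, the form of heart and skeletal muscle, and Rpl10l and Rpl39l, the forms of male germ cells, had no count in either library. A floor of 3 counts corresponds to 0.000508, 0.000121 and 0.00263 of the TPM of Rpl3, Rpl10 and Rpl39. The authors' deposited upper bounds reach 0.275 TPM for Rpl3l, 0.103 TPM for Rpl10l and 0.288 TPM for Rpl39l. The Rps4x copy Rps4l, annotated as a pseudogene in M21 and not a member, also had no count.

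**Figure D3:**
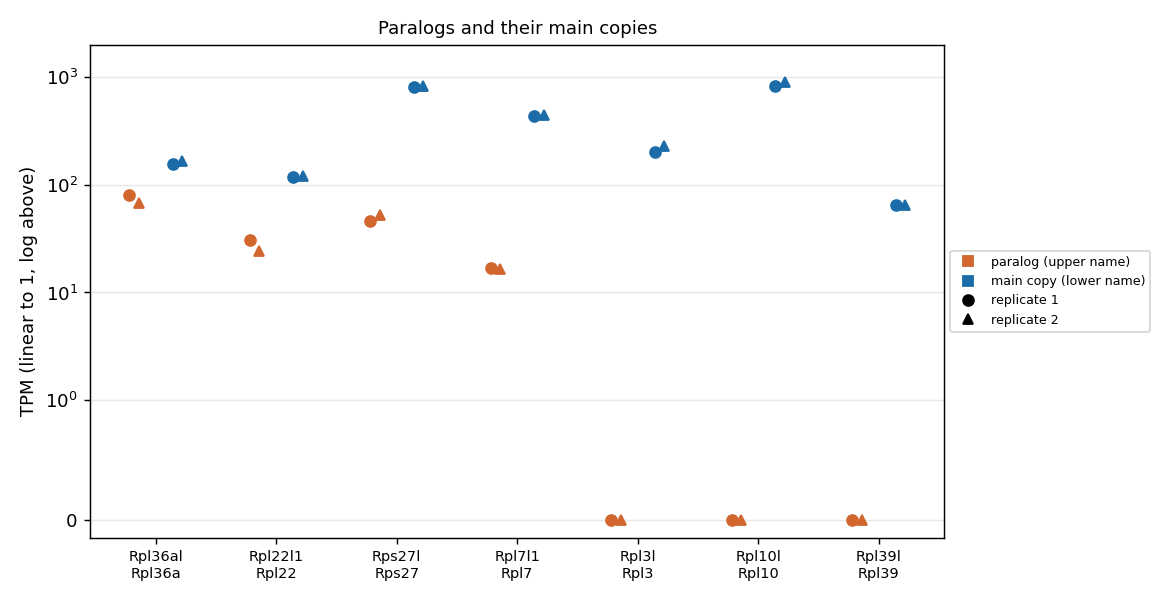
TPM of 7 paralogs (orange) and their main copies (blue) in replicate 1 (circles) and replicate 2 (triangles), on an axis that is linear to 1 and logarithmic above. The 4 expressed paralogs lie below their main copies in both libraries, and Rpl3l, Rpl10l and Rpl39l lie at 0.

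Of the 7 members named as processed copies, Rps27rt was the highest, at 100 and 108 TPM in replicates 1 and 2, and it matched Rps27 at all of 341 aligned bases. Rpl10-ps3 had 50.3 and 51.4 TPM, Rps12-ps3 12.2 and 16.8 TPM, and Rpl9-ps6 6.01 and 4.87 TPM. Rpl36a-ps1 had 1.48 and 7.77 counts, and Rpl9-ps1 and Rpl36-ps4 had none. Rps19bp1 had 12.28 and 11.96 TPM.

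The tables also divide each gene among its annotated transcripts, whose types M21 gives. Of 383 member transcripts, 19 in 3 genes had no type in M21. Protein-coding transcripts held 90.6% ± 0.297 of member TPM, retained-intron transcripts 4.18% ± 0.0734, transcripts typed as processed (spliced, with no coding frame annotated) 3.25% ± 0.0455, and targets of nonsense-mediated decay 0.855% ± 0.0236 (SD, n = 2 for each). Protein-coding transcripts held at least 95% of TPM in both libraries in 58 of the 87 members with counts in both, against 47.9% of all nuclear protein-coding genes with TPM in both. They held under 50% in 6 members, against 11.9% of those genes. These shares are estimates that depend on the transcripts listed, and short transcripts weigh more in TPM than in counts.

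Rpl35 had the lowest protein-coding share, at 2.12% in replicate 1 and 2.34% in replicate 2. Its processed transcript Rpl35-203 took 78.9% and 81.6% of its TPM. In Rpl12 the share was 18.1% and 18.7%, while the retained-intron transcript Rpl12-202 took 50.4% and 49.0% and the decay target Rpl12-201 30.2% and 30.8%. Regulated inclusion of a decay-directing exon is known in Rpl12 and Rpl3 of several animals.

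Rps20 had a protein-coding share of 22.7% and 20.1% of TPM in replicates 1 and 2, but 69.6% and 66.8% of expected counts. Its retained-intron transcript Rps20-201 (73.9% and 68.3% of TPM) is 582 nt long and the coding transcript Rps20-203 3706 nt. In the paralog Rpl22l1 the coding share was 28.5% and 32.1%. Rpl24 differed most between the libraries among these 5, at 21.1% and 45.2%, while its retained-intron transcript Rpl24-202 had 73.7% and 48.0%. The leading transcript differed between the libraries in 3 of 87 members, and the same count over all nuclear protein-coding genes was not made. Rps24, which is known to be spliced into forms with different ends in different tissues, was divided into Rps24-201 with 63.3% and 65.9% and Rps24-202 with 36.7% and 34.1%, both protein-coding.

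**Figure D4:**
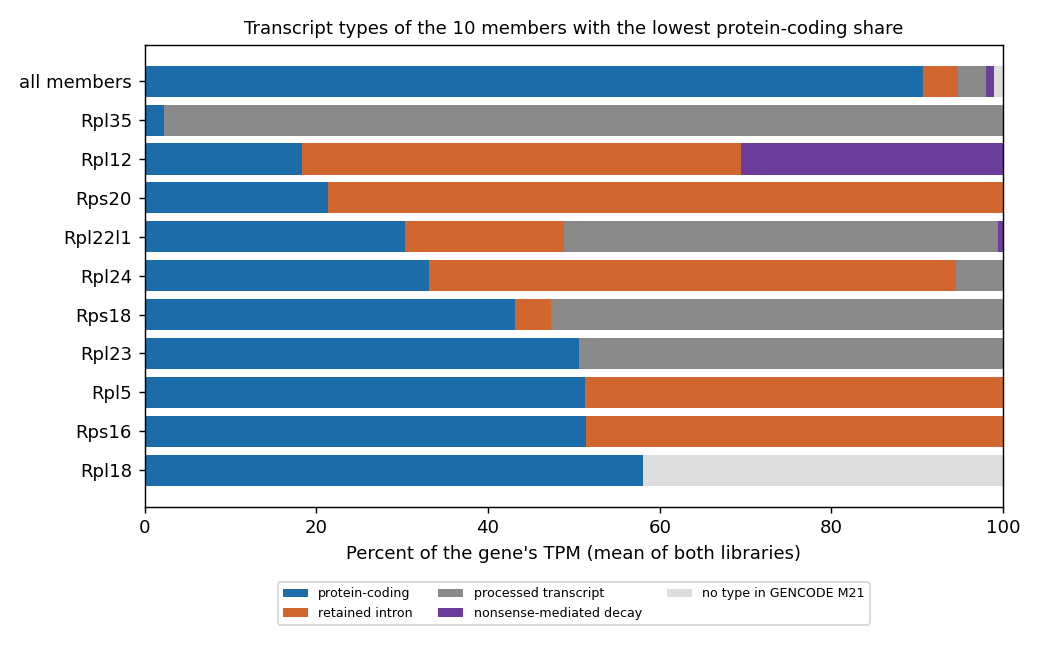
Share of TPM by transcript type (mean of both libraries) over all members and in the 10 members with the lowest protein-coding share. Rpl35 is almost wholly on processed transcripts, Rps20 on retained-intron transcripts, and Rpl12 on retained-intron and decay-target transcripts, against 90.6% protein-coding over all members.

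Introns of ribosomal protein genes also house small nucleolar RNAs (snoRNAs), guides for rRNA modification that are released from the spliced intron. On the same strand, 30 of the 92 members held 58 annotated snoRNA genes. Of these 58, 14 had counts in both libraries and 8 had at least 10 in both. For 25 there was no effective length, so that no level could be estimated for them. The same counts were not made over all annotated snoRNA genes, nor that of hosts over all nuclear protein-coding genes. All of the 58 with at least 10 counts in either library were 120 bases or longer. Snora64 in Rps2 had 101 and 104 counts in replicates 1 and 2, Snora65 in Rpl12 had 72.0 and 48.9, and Gm24044 in Rpsa 47.0 and 27.0. These counts may include intron or retained-intron reads, and their part was not tested.

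Between the libraries the ribosomal protein genes stayed close. Replicate 2 was divided by replicate 1 after 0.1 was added to each TPM, and the log2 of this ratio was taken. Over the 86 members with a mean TPM of at least 1 its median was -0.00 and its SD 0.13, against a median of 0.03 and SD of 0.37 over 8808 nuclear protein-coding genes with the same minimum. At 2000 or more counts in each library, where counting noise is small, the SD was 0.10 over 60 members and 0.13 over 1693 nuclear protein-coding genes. No member of that minimum TPM was 2-fold or more apart, against 1.95% of the nuclear protein-coding genes. That share depends on depth. At 200 or more counts in each library, 0 of 84 members and 10 of 7046 nuclear protein-coding genes were 2-fold or more apart. At 2000 or more counts it was 0 of 60 members and 0 of 1693 nuclear protein-coding genes. Over all members without a minimum, 1 was 2-fold or more apart, against 3.80% of all listed nuclear protein-coding genes: Rpl36a-ps1, with 1.48 and 7.77 counts.

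The largest differences among canonical genes were in Rpl27a (143 TPM in replicate 1 and 111 in replicate 2, log2 ratio -0.36), Rpl35 (173 and 135 TPM, -0.35) and Rpl38 (275 and 225 TPM, -0.29). For Rpl27a and Rpl38 the highest copy differed in the other direction: Gm7536 of Rpl27a had 238 and 303 TPM, and Rpl38-ps2 had 92.7 and 174 TPM. With copies added, Rpl27a had a log2 ratio of 0.11 and Rpl38 of 0.11, while Rpl35 stayed at -0.33. Gm7536 and Rpl38-ps2 are identical to their genes over all 444 and 213 aligned bases. Over the 77 canonical genes the SD of the log2 ratio was 0.098 with copies and 0.112 without. With 1 value per library, a difference of a single gene cannot be set against the spread within a library.

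**Figure D5:**
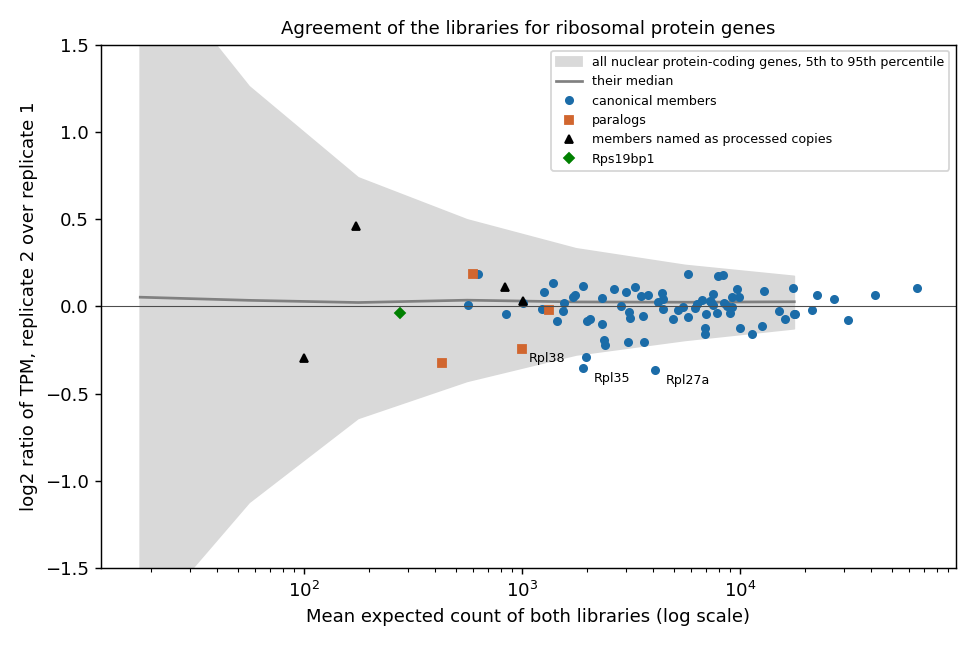
Log2 ratio of TPM (replicate 2 over replicate 1) against mean expected count on a log axis for the 86 members with a mean TPM of at least 1. The grey band spans the 5th to 95th percentile of all nuclear protein-coding genes at that count, and Rpl27a, Rpl35 and Rpl38 are the lowest canonical genes.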

How the data were processed

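Total RNA from 2 biological replicates of estradiol-treated G1E-ER4 cells was analysed from the deposited gene and transcript tables. Reads were placed on mm10 (per the labels) and quantified against GENCODE M4 (headers of the accompanying documentation). Column names are those of RSEM. The aligner, the version of the quantifier and any trimming were not given in the sources used here. Expected counts, as the authors made them, are estimates without normalization. TPM and FPKM values deposited by the authors are scaled by effective length and library total. Isoform shares are deposited by the authors as percent of a gene's TPM. Effective length was 119 and 123 nt below length in replicates 1 and 2.

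Genes were named from GENCODE M21 by identifier without version (42462 of 43346 Ensembl genes matched). The members, gene lists and thresholds were chosen with earlier results of these data known. Every member may be named, and values of some are not reported here. Values of both libraries are given for the 5 highest and 5 lowest of each subunit, list members, paralog pairs, members 2-fold or more apart and the 5 with the lowest protein-coding transcript share. The windows, copies and snoRNAs named were chosen after their values were seen. Copies came from blastn 2.17.0 of M21 pseudogene transcripts against members' protein-coding mRNAs (85% identity, 100 bases, same strand, best score). Promoter windows are from RefSeq. Expected counts were rounded for TMM factors (edgeR 4.0.16, R 4.3.3). Other steps used Python 3.11.15, pandas 2.3.3, numpy 2.4.6 and matplotlib 3.10.9. A chi-square of both libraries' counts was 16.6 times that of sampling noise over 84 members with 200 or more counts. It was 7.85 times over 7046 nuclear protein-coding genes, so the libraries were treated as separate. At an equal fold difference this multiple rises with depth, so the values do not compare members with other genes. In each library 2000 or more counts were reached by 60 members and 1693 nuclear protein-coding genes. A floor of 3 counts takes in counting error alone, since the tables give no molecular identifiers. Alternatives changed the unit (deposited FPKM, counts, posterior mean TPM), threshold, scaling, pseudocount and set of genes, and left out each replicate.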

Additional observations from a re-analysis of the deposited data

How the results depend on the processing

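The ribosomal protein share of nuclear protein-coding TPM, 13.2%, became 4.40% on expected counts not divided by length, 13.0% on posterior mean TPM, 13.1% with canonical genes only and 15.7% with copies added, and ran from 13.1% to 13.3% leaving out either replicate. The large over small ratio, 1.58, became 1.91 on expected counts and 1.74 with copies, and 1.56 to 1.60 leaving out either replicate. Members detected stayed between 85 and 87. The median log2 ratio of members was -0.05 with TMM or median-of-ratios factors, where that of all nuclear protein-coding genes was -0.00. The 1 member 2-fold or more apart became 0 with a pseudocount of 1, with a mean TPM of at least 1, or with 200 or more counts. The protein-coding transcript share, 90.6%, was 92.7% on counts. The copies' share of counts, 14.1%, was 18.6% on TPM, 13.6% at 95% identity and 13.7% without the 13 copies of other types. Genes with at least 50% on copies numbered 9, also at 95% identity, without those 13 and leaving out either replicate. On counts they were 7, with Rps13 in and Rpl27a, Rpl5 and Rplp0 out, and 6 without those 13. The highest over lowest ratio, 55.3, became 21.5 with copies and 35.9 without Rpl29. The alternatives with copies, at 95% identity, without those 13 and without Rpl29 were chosen after seeing the data, as were all for the number of genes with at least 50% on copies and for the highest over lowest ratio. Paralog ratios on counts were 0.135 for Rpl7l1 and 0.168 for Rps27l. The share with genes outside the naming rule added is not reported here. No paired analysis was possible because the series has 1 group. Depth does not limit the canonical genes, of which the lowest (Rpl29) has 580 and 550 counts. The 25 snoRNA genes without effective length cannot be measured, and reads shared with identical copies limit several members.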
